A study of Mus musculus with 80 samples.

Results

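The interferon response genes are 45 mouse genes chosen by symbol, and not by a measured value, from the deposited tables of gene counts. All 45 are among the 17672 genes of the DCA table. Of the 18877 genes of the DEHP table, 44 are members, and Ifi27 was not analysed here for DEHP. Liver RNA came from male B6C3F1 hybrid mice aged 4 weeks. In one study, di(2-ethylhexyl) phthalate (DEHP, a plasticiser and a ligand of PPAR alpha through its metabolite) was given in feed at 0, 1500, 3000 or 6000 ppm for 7 days, with 4 animals per dose and tissue collected in 2013. In the other, mice drank water with dichloroacetic acid (DCA, formed when water is chlorinated and known to block the kinases of pyruvate dehydrogenase) at 0, 1, 2 or 3.5 g/L, with 6 animals per dose and tissue collected in 1994. How long DCA was given is not stated in the sources used here. Each animal gave a frozen sample of mixed liver lobes and a formalin-fixed paraffin-embedded (FFPE) sample, so there are 80 libraries in 16 groups.

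Interferons are secreted proteins that bind receptors on almost every cell. Type I interferon acts through the kinases Jak1 and Tyk2 and a complex that contains Stat2 and Irf9 and binds the interferon-stimulated response element (ISRE), while type II interferon acts mainly at GAS elements. The genes they turn on include sensors of viral RNA, the 2'-5' oligoadenylate synthetases (OAS) that activate RNase L, the IFIT proteins that bind foreign RNA, the ubiquitin-like modifier Isg15 with its enzymes, and guanylate-binding and immunity-related GTPases. Many are expressed at a low tonic level in uninfected liver, in hepatocytes and in resident macrophages and endothelium.

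Promoters are shown as a description of sequence, and whether they bear on the comparisons below was not tested. Of the 45 members, 35 matched a RefSeq promoter of build GRCm38.p6, a window of 250 bases before to 50 bases after the gene start. The ISRE-like letters GAAANNGAAA, read on both strands, were present in the windows of 19 of the 35 members (54.3%), against 1079 of 27025 genes in the same table (3.99%). A longer form with 1 more box, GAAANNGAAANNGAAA, contains the shorter one and was present in 6 of the 35 members (17.1%), namely Bst2, Gbp3, Irgm1, Isg15, Oas1a and Oas1g, against 36 of 27025 genes (0.133%). The GAS-like letters TTCNNNGAA, which read the same on both strands, were present in 11 of the 35 members (31.4%) and in 2582 of 27025 genes (9.55%). A match describes letters in a window and is not evidence of binding. The next lines give the 160 bases before the start for 1 member of each of 5 role groups, chosen for the longest match and then for the smallest adjusted p among those lower at 3.5 g/L DCA, 5′ to 3′ on the strand of the gene, with ISRE-like matches in capitals.
Oas1a (chr5:120907526-120907685, minus strand, GRCm38.p6): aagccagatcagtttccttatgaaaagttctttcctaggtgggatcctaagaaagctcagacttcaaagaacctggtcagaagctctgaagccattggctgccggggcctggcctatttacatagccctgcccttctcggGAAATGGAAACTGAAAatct
Isg15 (chr4:156200819-156200978, minus strand, GRCm38.p6): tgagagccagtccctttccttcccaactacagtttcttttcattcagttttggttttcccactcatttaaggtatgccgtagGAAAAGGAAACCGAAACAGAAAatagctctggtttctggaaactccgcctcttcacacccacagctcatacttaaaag
Bst2 (chr8:71537473-71537632, minus strand, GRCm38.p6): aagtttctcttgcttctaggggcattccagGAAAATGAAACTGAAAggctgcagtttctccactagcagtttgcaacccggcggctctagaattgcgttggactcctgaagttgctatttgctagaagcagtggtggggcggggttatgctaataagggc
Irgm1 (chr11:48871421-48871580, minus strand, GRCm38.p6): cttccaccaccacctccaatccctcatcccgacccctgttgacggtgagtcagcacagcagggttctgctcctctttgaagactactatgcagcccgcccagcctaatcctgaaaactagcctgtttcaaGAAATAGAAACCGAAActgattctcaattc
Ifit1 (chr19:34640729-34640888, plus strand, GRCm38.p6): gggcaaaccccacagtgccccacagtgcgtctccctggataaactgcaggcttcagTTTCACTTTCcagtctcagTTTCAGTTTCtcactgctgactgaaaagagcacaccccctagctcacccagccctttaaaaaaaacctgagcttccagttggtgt
Oas1a, Isg15, Bst2 and Irgm1 hold runs of overlapping boxes on the strand of the gene, 4 boxes in Isg15 and 3 in each of the other three. In Ifit1 the boxes form 2 separate pairs on the opposite strand. The starts used here are those of the RefSeq promoters and can differ from the GENCODE gene spans given below. The Irgm1 stretch lies wholly inside the GENCODE span of its gene, and the end of the Ifit1 stretch runs into that of Ifit1.

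The DEHP frozen libraries held 16582951 to 29550616 counts in genes and the DEHP FFPE libraries 11673034 to 18866106. For DCA the range was 3067666 to 16890024 in frozen tissue and 109292 to 8434613 in FFPE tissue, where the ribosomal RNA gene Rn45s took a median of 56.5% of the counts. Among libraries of the same dose, the best correlated partner in the other preparation was that of the same animal in 13 of 16 DEHP animals and in 13 of 24 DCA animals. The exceptions with DEHP were 35A and 67C at 3000 ppm, whose own correlations were 0.0719 and 0.0952, and 64C at 6000 ppm, at 0.238. The labelled pairing of these libraries is thus not borne out by the correlations, and a mix-up was not shown either. The same holds for the DCA animals whose best partner was another. For DCA, 17 of 24 own correlations were at most 0.1. Partners at other doses were not compared. As a check of the tissue label, 8 hepatocyte genes led by Alb summed to 102700 to 125000 CPM (counts relative to library size, scaled by TMM) in the frozen DCA controls.

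Members differed widely in level. Per transcript length, in the authors' FPKM and over the 6 frozen DCA controls, Ifitm3, which blocks entry of enveloped viruses, was highest at 312 ± 30.5 FPKM (SD, n = 6). It was followed by Bst2, which tethers virions to the cell surface, at 79.0 ± 13.1 FPKM, Ifi27 at 42.0 ± 7.21 FPKM and Lgals3bp, a secreted glycoprotein, at 30.5 ± 1.77 FPKM. These 4 stood apart from the next gene below them, except that Lgals3bp and Irgm1 (26.4 ± 2.41 FPKM) overlapped in range, and 41 of the 44 neighbouring pairs in the order overlapped. The lowest were Oas1b at 0.860 ± 0.385 FPKM and Oas3 at 0.675 ± 0.160 FPKM.

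In frozen liver, DCA at 3.5 g/L was accompanied by lower counts of most interferon response genes. Of the 45 members, 33 were lower and 1 was higher than in controls (edgeR quasi-likelihood test, adjusted p under 0.05), while 21.1% of the 13089 genes tested were lower and 21.9% higher. The median member had a log2 fold change of -0.61 and the median gene one of -0.016. In 24 of 45 members all 6 treated libraries lay below all 6 controls, which was the case for 9.42% of all genes tested, and no member had all 6 above. The member mean, the average log2 CPM of the members relative to the controls, was -0.57 ± 0.11 at 3.5 g/L and between -0.11 and 0.17 in single controls (n = 6 each).

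**Figure D1:**
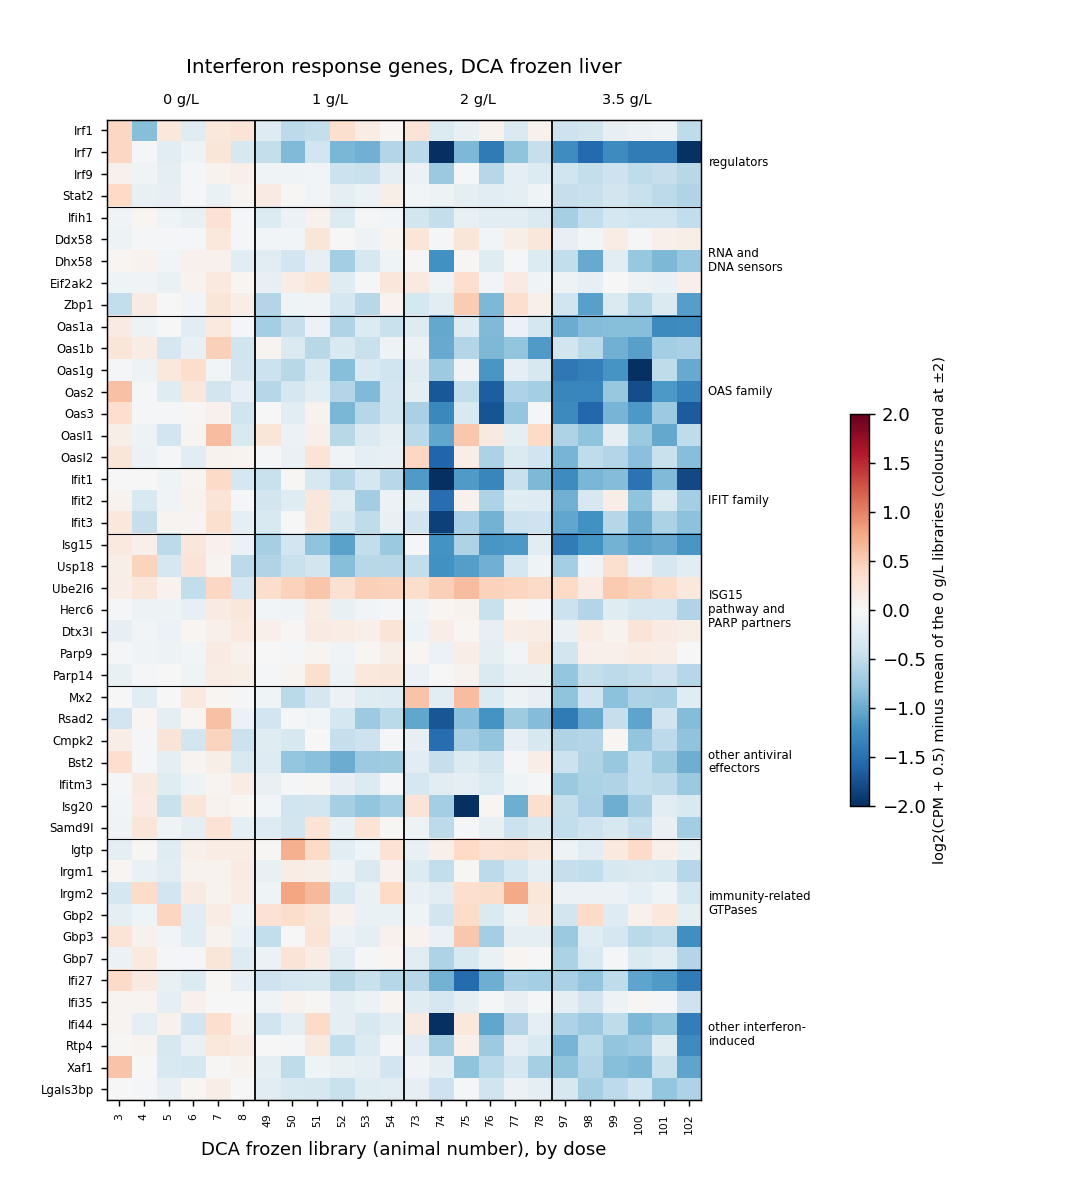
Heatmap of the 45 interferon response genes (rows, grouped by role) in the 24 frozen DCA libraries (columns, by dose from 0 to 3.5 g/L). Colour is log2 CPM minus the mean of the 0 g/L libraries and ends at ±2. The columns of 3.5 g/L are lower than the controls in most rows, with 33 of 45 members passing the test, while Ube2l6 is higher.

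Among the regulators, 3 of 4 were lower at 3.5 g/L. Irf7, the factor that amplifies the interferon response and lies at chr7:141262706-141266481 (minus strand; this and the other gene spans from GENCODE vM21 on GRCm38), had a median of 5.83 (3.76 to 6.60) CPM at 3.5 g/L, against 15.4 (12.9 to 21.7) CPM in controls. No treated library reached the lowest control, and the level was 65.8% lower (log2 fold change -1.55 ± 0.18 (SE), edgeR adjusted p = 2.99e-07). Stat2, a subunit of the complex that binds the ISRE, had 51.8 (46.9 to 55.1) CPM at 3.5 g/L, against 67.5 (63.7 to 94.0) CPM in controls, again without overlap (-0.49 ± 0.079, edgeR adjusted p = 2.36e-05). Its partner Irf9 had a log2 fold change of -0.48 ± 0.092. Irf1, a factor induced mainly by type II interferon, did not pass the test (-0.33 ± 0.17, edgeR adjusted p = 0.121), and its controls alone ran from 12.2 to 30.3 CPM.

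Of the 5 sensors, 3 were lower. Ifih1 (MDA5, the receptor for long double-stranded RNA, chr2:62595798-62646255, minus strand) had 41.7 (35.7 to 44.5) CPM at 3.5 g/L, against 55.1 (51.3 to 69.3) CPM in controls, without overlap (-0.47 ± 0.076, edgeR adjusted p = 1.92e-05). Dhx58 (LGP2, which modulates MDA5 and RIG-I) and Zbp1 (a sensor of Z-form nucleic acid) had log2 fold changes of -0.72 and -0.71. Ddx58 (RIG-I) and Eif2ak2 (PKR, a kinase activated by double-stranded RNA) did not pass the test, with log2 fold changes of 0.018 ± 0.073 and -0.066 ± 0.086. Ddx58 had 41.7 (36.1 to 45.1) CPM at 3.5 g/L and 39.8 (37.7 to 47.2) CPM in controls, so its groups overlapped almost fully.

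All 7 OAS genes were lower, with log2 fold changes between -1.81 (Oas1g) and -0.74 (Oasl1). Oas1a (chr5:120896256-120907521, minus strand) had 2.03 (1.49 to 2.17) CPM at 3.5 g/L, against 4.27 (3.65 to 5.01) CPM in controls (-1.19 ± 0.16, edgeR adjusted p = 2.01e-06). Oas3 had 1.02 (0.616 to 1.62) CPM at 3.5 g/L, against 3.03 (2.17 to 3.95) CPM in controls (-1.53 ± 0.29, edgeR adjusted p = 1.44e-04). Both genes showed no overlap between the groups, as did Oas2, Oas1g and Oasl2. Oasl1, a family member that restrains Irf7 translation in mouse cells, had 3.36 (2.52 to 4.89) CPM at 3.5 g/L, against 5.56 (4.23 to 8.99) CPM in controls (-0.74 ± 0.21, edgeR adjusted p = 0.00746), with 5 of 6 treated libraries below all controls. All 7 OAS members lie on chromosome 5 and the Oas1 copies are close in sequence, so reads may be split between them, and their separate values are uncertain.

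The 3 IFIT genes on chromosome 19 were also lower. Ifit1 (chr19:34640871-34650009, plus strand), which binds RNA lacking a self-type cap, had 3.41 (1.85 to 4.01) CPM at 3.5 g/L, against 7.69 (5.90 to 10.2) CPM in controls (-1.29 ± 0.20, edgeR adjusted p = 1.06e-05). Ifit3, its binding partner, had 5.35 (4.22 to 6.86) CPM at 3.5 g/L, against 10.9 (7.43 to 13.1) CPM in controls (-0.94 ± 0.17, edgeR adjusted p = 9.84e-05). Neither gene overlapped between the groups. Ifit2 had a log2 fold change of -0.49 ± 0.20 (edgeR adjusted p = 0.0463) and lost the call when any of 8 single libraries was left out.

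The Isg15 pathway and the PARP partners were split. Isg15 itself, the ubiquitin-like modifier, had 2.35 (1.86 to 2.72) CPM at 3.5 g/L, against 6.14 (3.83 to 6.74) CPM in controls (-1.30 ± 0.20, edgeR adjusted p = 8.75e-06), without overlap. Herc6, which acts as the Isg15 ligase in mouse, had a log2 fold change of -0.43 and Parp14, a mono-ADP-ribosyltransferase, one of -0.54 ± 0.077 (edgeR adjusted p = 3.75e-06). Parp14 ran from 46.0 to 59.4 CPM at 3.5 g/L, against 71.1 to 88.1 CPM in controls. Ube2l6, the Isg15-conjugating enzyme, was the 1 member that was higher, with 40.3 (34.6 to 44.3) CPM at 3.5 g/L, against 33.0 (21.8 to 41.0) CPM in controls (0.33 ± 0.11, edgeR adjusted p = 0.0144). Its groups overlapped, with 2 of 6 treated libraries above all controls. Usp18 (which removes Isg15), Dtx3l and Parp9 (an E3 ligase and its partner) did not pass the test, and Dtx3l had 78.8 (65.7 to 86.1) CPM at 3.5 g/L, against 71.8 (64.6 to 82.8) CPM in controls. Dtx3l and Parp9 overlap on opposite strands, and whether counting used strand is not given in the sources used here.

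Of the 7 other antiviral effectors, 6 were lower. Ifitm3 (chr7:141009586-141010770, minus strand), the most abundant member, had 104 (95.8 to 114) CPM at 3.5 g/L, against 162 (137 to 182) CPM in controls (-0.63 ± 0.073, edgeR adjusted p = 1.85e-07). Bst2 had 31.7 (25.3 to 37.3) CPM at 3.5 g/L, against 50.8 (40.7 to 63.6) CPM in controls (-0.67 ± 0.12, edgeR adjusted p = 8.29e-05). In both genes every treated library was below every control, a fall of 35.5% in Ifitm3. Rsad2 (viperin, which makes a chain-terminating nucleotide), Mx2 (a dynamin-like GTPase), Samd9l and Cmpk2 (a nucleotide kinase next to Rsad2) had log2 fold changes of -0.90, -0.61, -0.44 and -0.61. Isg20, an exonuclease with few counts, had -0.73 ± 0.31 and missed the threshold (edgeR adjusted p = 0.0557).

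Immunity-related and guanylate-binding GTPases, which act on vacuoles that hold pathogens, were lower in 3 of 6 cases. Irgm1 (chr11:48861968-48871683, minus strand) had 44.1 (39.0 to 47.4) CPM at 3.5 g/L, against 60.3 (49.5 to 65.4) CPM in controls (-0.41 ± 0.089, edgeR adjusted p = 6.31e-04), without overlap. Gbp3 and Gbp7 had log2 fold changes of -0.65 and -0.36. Irgm2 had 44.8 (38.0 to 46.1) CPM at 3.5 g/L, against 52.5 (37.4 to 62.7) CPM in controls, with full overlap and a log2 fold change of -0.19 ± 0.17. Igtp and Gbp2 also did not pass the test, at 0.049 ± 0.13 and -0.021 ± 0.16. The annotated spans of Igtp and Irgm2 overlap on the same strand, so their separate counts are uncertain.

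In the last role group, 5 of 6 were lower. Lgals3bp (chr11:118392751-118402092, minus strand) had 43.9 (37.9 to 52.1) CPM at 3.5 g/L, against 65.3 (58.6 to 71.8) CPM in controls (-0.55 ± 0.075, edgeR adjusted p = 2.38e-06), without overlap. Ifi27 (a mitochondrial and nuclear membrane protein), Xaf1 (a pro-apoptotic partner of XIAP), Ifi44 and Rtp4 (a chaperone of membrane receptors) had log2 fold changes of -0.93, -0.92, -0.92 and -0.79. Ifi35 did not pass the test (-0.18 ± 0.079, edgeR adjusted p = 0.0703). Across the 45 members the direction at 3.5 g/L was the same in the authors' FPKM as in CPM in 43 genes, the exceptions being Eif2ak2 and Gbp2.

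All 6 libraries of 3.5 g/L were run in lane L4 and all 6 controls in lane L5 of the same sequencing run, so in this comparison the dose cannot be told apart from the lane. Within lane L4, where 3 libraries of 2 g/L could be set against the 6 of 3.5 g/L, 6 of 44 members were lower at 3.5 g/L and none higher, against 3.57% of 12965 genes lower. They were Ifitm3 (-0.49 on the log2 scale), Irgm2 (-0.62), Stat2 (-0.31), Bst2 (-0.58), Oasl1 (-0.86) and Parp14 (-0.35).

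At the lower doses of DCA fewer members passed the test. At 1 g/L, 7 of 45 members were lower (7.01% of all genes tested were) and Ube2l6 was higher (4.11% were), with the median member at -0.16. At 2 g/L, 18 members were lower (13.7% of all genes) and Ube2l6 was higher (15.5%), with the median member at -0.27. Ifi27, Irf7, Isg15, Lgals3bp and Oas1a were lower at all 3 doses. At 1 g/L the calls of Ifi27, Irf7, Oas1a, Usp18 and Ube2l6 were lost with the sequencing run as a term and also without libraries 53 and 54 of another run, while Bst2, Isg15 and Lgals3bp passed in both. Bst2 was lower at 1 g/L (-0.73 ± 0.12, edgeR adjusted p = 6.30e-04) and at 3.5 g/L but did not pass the test at 2 g/L, and Usp18 was lower at 1 and 2 g/L (-0.63 and -0.64) and not at 3.5 g/L. All comparisons of DCA doses use the same 6 controls.

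The median of Irf7 was lower at each higher dose, though the libraries of neighbouring treated doses overlapped. Its median was 15.4 (12.9 to 21.7) CPM at 0, 9.55 (8.096 to 12.4) CPM at 1, 8.79 (3.44 to 11.7) CPM at 2 and 5.83 (3.76 to 6.60) CPM at 3.5 g/L, with every treated library of every dose below every control. Ifih1 had 55.1 (51.3 to 69.3), 53.5 (46.8 to 60.4), 47.6 (40.7 to 51.3) and 41.7 (35.7 to 44.5) CPM at the same 4 doses, and its 2 and 3.5 g/L libraries were all below the controls. Stat2 had 67.5 (63.7 to 94.0), 70.5 (62.7 to 79.8), 64.5 (61.7 to 68.2) and 51.8 (46.9 to 55.1) CPM, and its libraries overlapped the controls at 1 and 2 g/L but not at 3.5 g/L. Ube2l6 was higher at all 3 doses, with 33.0 (21.8 to 41.0), 42.6 (38.0 to 45.5), 42.0 (39.4 to 47.5) and 40.3 (34.6 to 44.3) CPM, and its slope on dose did not pass the test (0.26 ± 0.13). Over the members, 37 of 45 had their lowest estimate at 3.5 g/L, 22 were lower at each dose than at the dose before, and 34 were below zero at all 3 doses. The shares of all genes with these orders are not given here, and the 3 estimates share the same controls. A linear slope on dose passed the test (edgeR adjusted p under 0.05) as negative in 34 members and as positive in none. Among all genes tested, 18.8% passed with a negative slope. Passing or not, the slope was negative in 40 members and positive in 5. Compared directly, 10 members were lower at 3.5 than at 2 g/L (5.13% of all genes), among them Mx2 (-0.67) and Parp14 (-0.43). The 2 g/L group includes 3 libraries of lane L3. Within lane L4 Parp14 passed and Mx2 did not (-0.42, edgeR adjusted p = 0.0937). Irf7 did not pass between 3.5 and 2 g/L (-0.59, edgeR adjusted p = 0.0567), nor within lane L4 (-0.65, edgeR adjusted p = 0.0866).

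**Figure D2:**
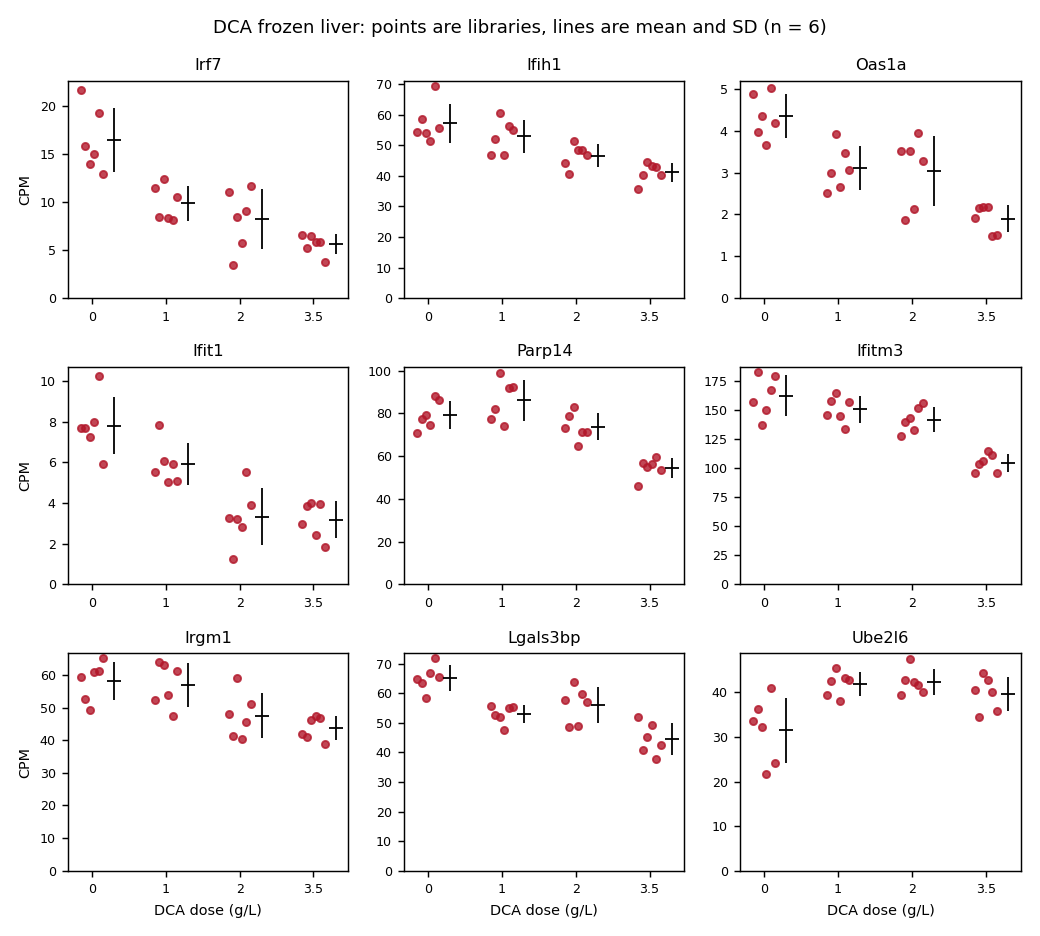
CPM of selected interferon response genes in each frozen DCA library by dose (x axis, g/L, low to high), with the mean and SD of 6 libraries. Irf7 has a lower median at each higher dose, Oas1a is lower than the controls at all 3 doses, Parp14 and Ifitm3 separate from the controls mainly at 3.5 g/L, and Ube2l6 lies higher at all doses.

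At 2 g/L, 3 of the 6 libraries came from lane L3 and held 3067666 to 3854949 counts, the lowest of the frozen DCA set, and without them 12 members were lower and 1 higher. At 1 g/L, libraries 53 and 54 came from another sequencing run than the controls, and without them 3 members were lower. The share of all genes passing without these libraries is not given here.

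In FFPE tissue of the DCA animals few of these genes could be tested. Only 14 of 45 members passed the filter on low counts, and none passed the test at 1, 2 or 3.5 g/L or in the slope (edgeR), at an unadjusted p under 0.05 in 0, 0, 1 and 1 members. Of the 4772 genes tested, 0.126%, 0.335% and 0.293% passed at 1, 2 and 3.5 g/L and 0.356% in the slope. The summed counts of all members ran from 1 to 271 per library at 3.5 g/L, against 340 to 4776 in controls, and 1 to 24 members were detected per library, against 15 to 40. Ifitm3, the deepest of them, had a log2 fold change of -2.02 ± 0.94 at 3.5 g/L in FFPE tissue (edgeR adjusted p = 0.593), against -0.63 ± 0.073 in frozen tissue. All 6 controls and 3 libraries of 1 g/L were run in V18431 with 1385869 to 8434613 counts, and all others in W48315 with 109292 to 653006, so at 2 and 3.5 g/L the dose cannot be told apart from run or depth.

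After DEHP, fewer members passed the test against controls, and the median member was lowest at the lowest dose. In frozen liver, 6 of 44 members were lower at 1500 ppm (2.14% of 13802 genes were), 2 at 3000 ppm (6.48%) and 4 at 6000 ppm (4.72%), with 1 member higher at 6000 ppm (7.05%). At 3000 ppm the share of members was no larger than that of all genes. The median member had log2 fold changes of -0.55, -0.34 and -0.23 at the 3 doses. The slope on dose passed in no member, with 9 members at an unadjusted p under 0.05, and in 2.61% of all genes. In 31 of 44 members the lowest estimate was at 1500 ppm, and no member passed the test when 6000 and 1500 ppm were compared directly (edgeR, 13 members at an unadjusted p under 0.05). The share of all genes with the lowest estimate at 1500 ppm is not given here.

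FFPE sections of the same DEHP livers gave a like pattern. At 1500 ppm 7 of 44 members were lower (1.31% of 13581 genes), at 3000 ppm 4 (3.24%) and at 6000 ppm 3 (4.43%), with 1 higher at 6000 ppm (7.94%), and the slope passed in none (3.59% of all genes, 5 members at an unadjusted p under 0.05). The median member had -0.57, -0.34 and -0.28. In 12 of 44 members all 4 libraries of 1500 ppm lay below all 4 controls in FFPE tissue (5.5% of all genes), and in 10 of 44 in frozen tissue (5.47%). At 3000 ppm this was so in 2 members in FFPE (4.98%) and 2 in frozen tissue (9.05%). At 6000 ppm it was so in 3 (5.99%) and 1 (8.04%). In frozen tissue at these 2 higher doses the share of members was smaller than that of all genes. Gbp7, Ifih1, Ifitm3, Mx2 and Parp14 were lower at some dose in both preparations, which are samples of the same animals and not independent. They were 5 of the 7 members lower in frozen and of the 9 lower in FFPE tissue.

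**Figure D3:**
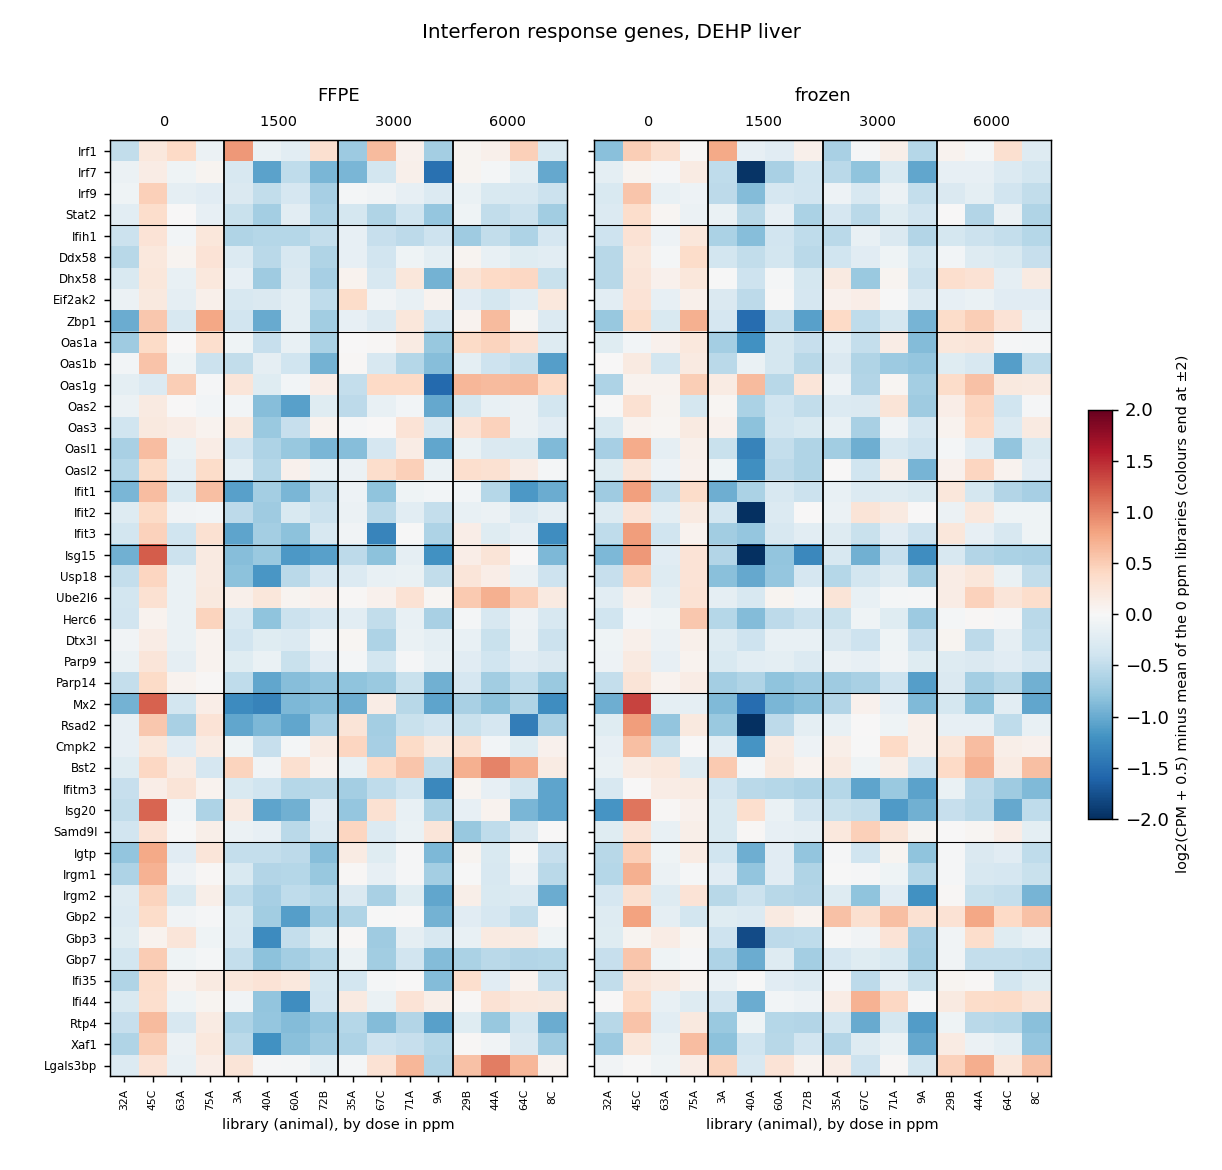
Heatmap of the 44 interferon response genes in the DEHP libraries, FFPE and frozen (columns by dose from 0 to 6000 ppm, rows by role). Colour is log2 CPM minus the mean of the 0 ppm libraries of the same preparation and ends at ±2. Control 32A is low and control 45C high across most rows in both preparations, and library 40A is the lowest of the 1500 ppm group.

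Parp14 was lower at every dose in both preparations, though with the sequencing run as a term the call was lost at 1500 ppm in FFPE and at 3000 and 6000 ppm in frozen tissue (edgeR adjusted p of at most 0.058). In frozen liver it had 66.9, 112, 97.2 and 103 CPM in controls, 57.9, 61.2, 52.9 and 56.0 CPM at 1500 ppm, 56.5, 59.0, 69.7 and 43.2 CPM at 3000 ppm and 76.1, 57.8, 63.2 and 47.4 CPM at 6000 ppm. Control 32A was the lowest control and overlapped the treated libraries except those of 1500 ppm, which were all below it. The log2 fold changes were -0.73 ± 0.17, -0.73 ± 0.17 and -0.63 ± 0.17 in frozen tissue and -0.82 ± 0.17, -0.76 ± 0.17 and -0.60 ± 0.17 in FFPE tissue (edgeR adjusted p between 0.00872 and 0.0294).

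Ifih1 was lower at 1500 and 6000 ppm in both preparations. It had 40.8, 35.2, 49.0 and 44.9 CPM in frozen liver at 1500 ppm and 50.0, 47.1, 45.8 and 42.6 CPM at 6000 ppm, against 47.7, 78.4, 59.3 and 74.6 CPM in controls. Control 32A again lay among the treated libraries. In FFPE tissue Ifih1 had 28.9, 29.3, 29.5 and 31.6 CPM at 1500 ppm, against 32.5, 53.1, 42.1 and 51.6 CPM in controls, without overlap. The log2 fold changes at 1500 and 6000 ppm were -0.61 ± 0.15 and -0.49 ± 0.15 in frozen and -0.59 ± 0.14 and -0.56 ± 0.14 in FFPE tissue (edgeR adjusted p between 0.0147 and 0.0423).

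Ifitm3 was lower at all 3 doses in frozen liver. It had 111, 100.0, 97.4 and 94.7 CPM at 1500 ppm and 97.9, 69.7, 86.3 and 68.9 CPM at 3000 ppm, against 116, 146, 160.5 and 163 CPM in controls, and no library of these doses reached the lowest control. At 6000 ppm it had 132, 100.4, 88.4 and 78.4 CPM, and library 29B overlapped the controls. The log2 fold changes were -0.54 ± 0.16, -0.86 ± 0.16 and -0.55 ± 0.16 (edgeR adjusted p = 0.0499, 0.00186 and 0.0299). In FFPE tissue it was lower at 3000 ppm only (-0.71 ± 0.22, edgeR adjusted p = 0.0499), with 73.4, 82.8, 89.1 and 48.0 CPM, against 85.6, 129.965, 141 and 124 CPM in controls, and library 71A reached the lowest control.

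Gbp7 and Mx2 were lower at 1500 ppm in both preparations. Gbp7 had 14.6, 11.2, 18.9 and 14.1 CPM in frozen liver at 1500 ppm, against 16.5, 33.5, 21.5 and 22.5 CPM in controls (-0.68 ± 0.20, edgeR adjusted p = 0.0486). In FFPE tissue it had 12.8, 9.94, 10.96 and 11.9 CPM at 1500 ppm, 11.4, 12.1, 11.8 and 11.8 CPM at 6000 ppm and 13.7, 25.6, 16.8 and 17.4 CPM in controls, and both doses passed the test (-0.69 and -0.64). Mx2 had 5.16, 3.12, 5.03 and 5.32 CPM in frozen liver at 1500 ppm, against 4.78, 26.2, 8.64 and 8.68 CPM in controls (-1.38 ± 0.40, edgeR adjusted p = 0.05). The Mx2 controls were led by animal 45C, at more than any other library, and in FFPE tissue the controls were 4.56, 21.6, 7.02 and 10.2 CPM, with 3.56, 3.34, 4.73 and 4.87 CPM at 1500 ppm (-1.39 ± 0.39). GENCODE vM21 marks Mx2 as a polymorphic pseudogene.

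A few members passed the test in 1 preparation, with an estimate of the same sign in the other. Usp18 had 3.06, 2.62, 3.20 and 4.54 CPM at 1500 ppm in frozen liver, against 4.09, 8.24, 4.78 and 7.15 CPM in controls (-0.85 ± 0.24), and -0.83 ± 0.26 in FFPE tissue. Parp9 had 49.5, 48.5, 50.9 and 47.0 CPM at 6000 ppm in frozen liver, against 55.6, 67.5, 53.0 and 62.8 CPM in controls, without overlap (-0.29 ± 0.088, FFPE -0.30 ± 0.12). The size of the Parp9 difference was among the smallest that passed.

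Xaf1, Rsad2, Rtp4 and Stat2 passed in FFPE tissue. Xaf1 had 3.67, 2.14, 2.91 and 3.23 CPM at 1500 ppm, against 3.52, 8.11, 5.14 and 6.55 CPM in controls (-0.95 ± 0.25, frozen -0.66 ± 0.29). Rsad2 had 5.17, 5.76, 5.15 and 6.85 CPM at 1500 ppm, against 9.91, 16.4, 6.97 and 13.6 CPM in controls (-1.03 ± 0.28, frozen -0.91 ± 0.34). Rsad2 was without overlap and Xaf1 was not. Rtp4 had 5.17, 4.55, 4.23 and 4.60 CPM at 1500 ppm and 5.32, 4.27, 5.27 and 3.59 CPM at 3000 ppm, against 5.80, 12.9, 6.42 and 9.22 CPM in controls, without overlap at either dose (-0.89 and -0.89, frozen -0.57 and -0.78). Stat2 had 53.2, 44.8, 51.9 and 39.5 CPM at 3000 ppm, against 59.0, 87.6, 68.6 and 61.2 CPM in controls, also without overlap (-0.54 ± 0.16, frozen -0.39 ± 0.17). Whether the preparations differed at 1500 or 3000 ppm was not tested.

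A pair of members were higher at 6000 ppm. Lgals3bp had 51.0, 61.0, 43.0 and 55.6 CPM in frozen liver at 6000 ppm, against 35.2, 36.7, 34.7 and 40.8 CPM in controls (0.52 ± 0.16, edgeR adjusted p = 0.0485). Every library of 6000 ppm was above every control. In FFPE tissue Lgals3bp did not pass (0.62 ± 0.23), and Ube2l6 did, with 43.8, 49.7, 42.0 and 34.5 CPM at 6000 ppm, against 23.3, 37.6, 27.5 and 34.5 CPM in controls (0.47 ± 0.14, edgeR adjusted p = 0.0413). Ube2l6 in frozen tissue had 0.30 ± 0.13.

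**Figure D4:**
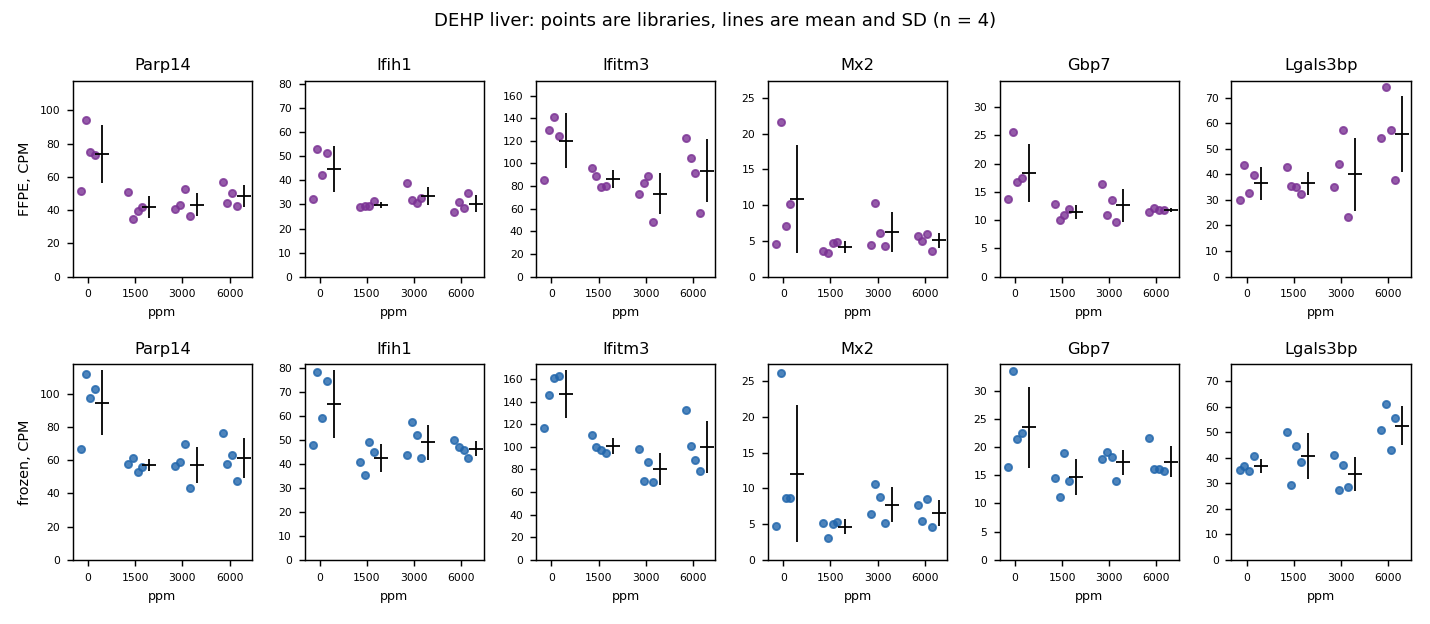
CPM of selected interferon response genes in each DEHP library by dose (x axis, ppm, low to high) for FFPE (top) and frozen (bottom) tissue, with the mean and SD of 4 libraries. Parp14 is lower at all 3 doses in both preparations and Ifitm3 at all 3 doses in frozen liver, while Lgals3bp in frozen liver is highest at 6000 ppm.

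The DEHP counts depended on single libraries, treated ones as well as controls. At 1500 ppm the count moved by a factor of more than 1.5 without any of 8 single libraries in frozen tissue. In FFPE tissue it did so without 7 of 8. The member mean of the 4 frozen controls was -0.40 in animal 32A, -0.11 in 63A, 0.13 in 75A and 0.39 in 45C, and in FFPE tissue the order was the same, at -0.41, -0.093, 0.10 and 0.40. The 1500 ppm libraries had -0.46 ± 0.20 in frozen and -0.47 ± 0.12 in FFPE tissue, so control 32A lay among them. Without 32A, 13 frozen and 15 FFPE members passed at 1500 ppm, and without 45C, 0 and 1 did. With DESeq2 in place of edgeR, 12 frozen and 13 FFPE members passed at 1500 ppm. The libraries of each DEHP dose came from more than 1 sequencing run. With the run as a term, 1 frozen member (Parp14) and 0 FFPE members passed at 1500 ppm, 1 (Ifitm3) and 4 at 3000 ppm, and 0 and 4 at 6000 ppm. The share of all genes passing in these settings is not given here. Whether the members moved more than other genes is therefore not shown.

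At dose 0, FFPE was compared with frozen tissue of the same animals, with the animal as a replicate block. For DEHP, 10 of 44 members were lower and 2 higher in FFPE tissue, against 16.7% and 14.6% of 14065 genes. Parp9 had 36.0, 47.3, 35.0 and 41.8 CPM in FFPE controls, against 55.6, 67.5, 53.0 and 62.8 CPM in frozen controls (-0.49 ± 0.075, edgeR adjusted p = 9.77e-05). Ifih1 and Parp14 were lower too (-0.45 and -0.28), as were Usp18 (-0.56), Herc6 (-0.46), Igtp (-0.51), Ifi35 (-0.61), Samd9l (-0.42), Irgm1 (-0.24) and Ddx58 (-0.23). In Igtp each of the 4 animals was lower in FFPE tissue, with 12.6, 37.7, 18.9 and 26.1 CPM in FFPE, against 22.8, 47.0, 31.5 and 37.5 CPM in frozen tissue.

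Higher in FFPE tissue were Stat2 and Oas2. Stat2 had 59.0, 87.6, 68.6 and 61.2 CPM in FFPE, against 47.5, 73.6, 58.9 and 53.1 CPM in frozen controls (0.34 ± 0.08, edgeR adjusted p = 0.00347), and each animal was higher in FFPE. Oas2 had 4.50, 5.66, 4.98 and 4.72 CPM in FFPE, against 3.05, 3.90, 3.21 and 2.30 CPM in frozen controls (0.77 ± 0.18). For DCA, none of 42 members passed (1.78% of 11526 genes did, 9 members at an unadjusted p under 0.05). The difference between preparations in the effect of the top dose passed in no member for DEHP (0% of all genes, 1 member at an unadjusted p under 0.05) or for DCA (0.0607% of all genes, 2 members), and for DCA the depth of the FFPE libraries limits this test. Without the replicate block, 4 members passed for DEHP and 2 for DCA at dose 0, and 1 for DCA in the top-dose effect.

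The chemicals were set side by side at their top doses in frozen liver, which are doses of different agents, routes and studies and are not matched. In 1 fit over both studies, each against its own controls, the effect of 3.5 g/L DCA was lower than that of 6000 ppm DEHP in 9 of 44 members and higher in none, against 6.48% of 13219 genes lower. The lane of the 3.5 g/L DCA libraries differed from that of their controls, so in these differences too dose and lane of DCA cannot be told apart. Ifih1, Ifitm3 and Parp14 passed in both studies in the same direction. They are named for that, a choice that favours small differences between the effects. With the sequencing run as a term, no member passed at 6000 ppm DEHP in frozen liver. The differences of the named genes were -0.0027 ± 0.16, -0.10 ± 0.16 and 0.069 ± 0.17. The 95% intervals of these differences ran from -0.31 to 0.30 for Ifih1, from -0.41 to 0.22 for Ifitm3 and from -0.27 to 0.40 for Parp14.

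Bst2 and Lgals3bp had the smallest adjusted p for this difference. Bst2 had a log2 fold change of -0.67 ± 0.12 with DCA and of 0.47 ± 0.16 with DEHP, which did not pass, and the difference was -1.16 ± 0.20 (edgeR adjusted p = 1.97e-04). In frozen DEHP liver it had 50.6, 62.6, 42.8 and 58.5 CPM at 6000 ppm, against 35.0, 43.1, 44.4 and 31.9 CPM in controls. Lgals3bp fell with DCA and rose with DEHP, a difference of -1.08 ± 0.16 (edgeR adjusted p = 3.57e-05). Oas1a, Oas1g, Oas2 and Oas3 were lower with DCA and had 0.11, 0.41, 0.052 and 0.12 with DEHP, with differences of -1.32, -2.24, -1.54 and -1.66. Irf7, Ifi44 and Dhx58 made up the 9, at -1.31, -1.23 and -0.88.

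Among the OAS genes in DEHP liver, Oas1a had 5.38, 5.40, 4.41 and 4.34 CPM at 6000 ppm, against 3.74, 4.31, 4.78 and 5.30 CPM in controls. Oas3 had 3.58, 4.61, 2.70 and 3.89 CPM at 6000 ppm, against 2.66, 3.60, 3.52 and 3.89 CPM in controls. Both overlapped their controls, and none of the 7 OAS genes passed the test at any DEHP dose in either preparation.

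**Figure D5:**
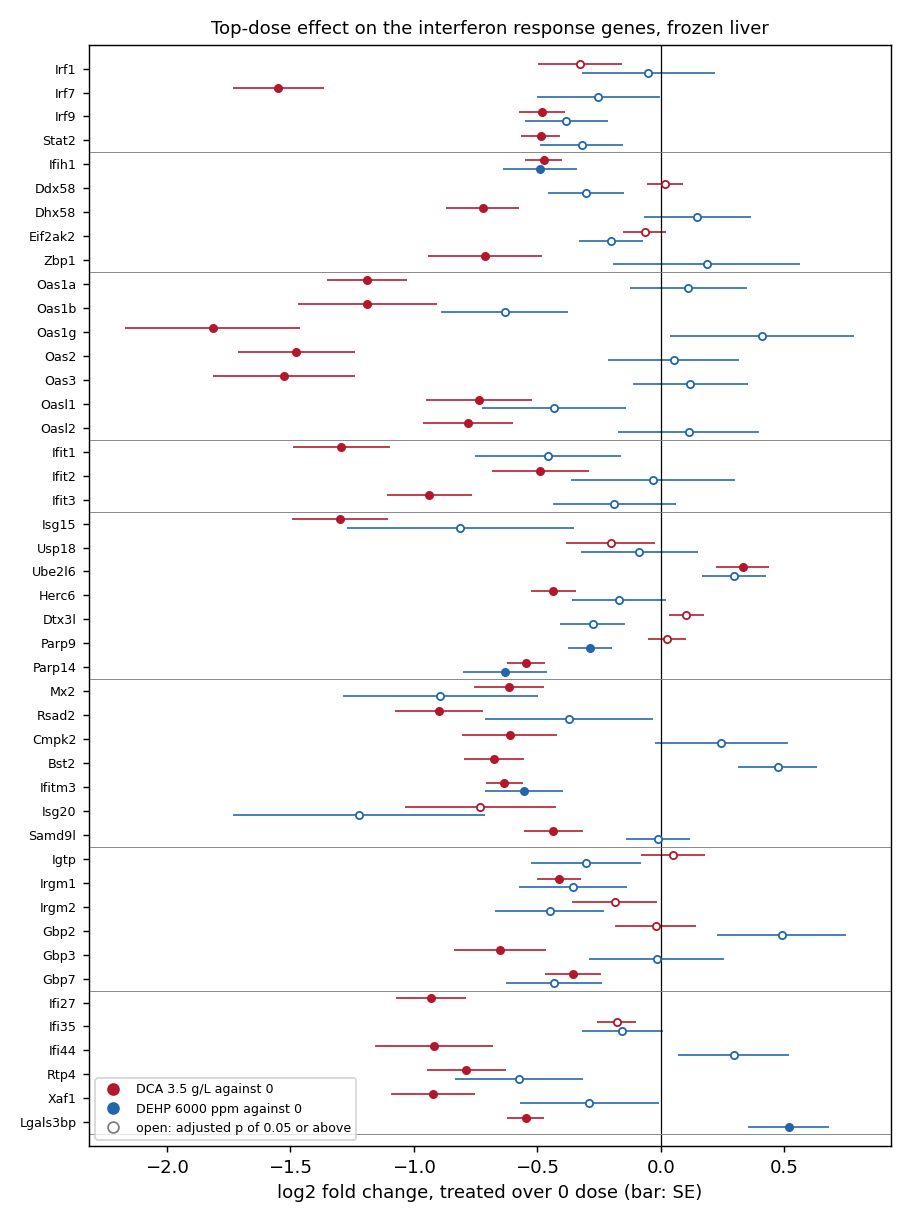
Log2 fold change with its SE of each interferon response gene in frozen liver, for DCA 3.5 g/L and for DEHP 6000 ppm, each against its own controls, grouped by role. The OAS genes, Irf7, Bst2 and Lgals3bp lie lower for DCA than for DEHP. Among the OAS genes, Oas1b, Oasl1 and Oasl2 did not pass the test of this difference. Ifih1, Ifitm3 and Parp14, named because they passed in both studies, lie together.

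Other genes of the interferon pathway were read from lists fixed alongside the members. At 3.5 g/L DCA in frozen liver, where 21.1% of all genes were lower and 21.9% higher, 9 of 15 tested receptor and JAK-STAT genes were lower and 2 were higher (list median -0.33). Irf5, a macrophage-rich transcription factor, had a log2 fold change of -1.50 ± 0.17, Stat3 one of -0.78 ± 0.10 and the receptor kinase Tyk2 one of -0.53 ± 0.10. Of 14 genes of MHC class I antigen presentation, 11 were lower (list median -0.57), those of smallest adjusted p being the transporter Tap2 (-0.69), the loading factor Tapbp (-0.70) and H2-Q4 (-0.94), and 1 was higher. Of 11 adaptors of nucleic acid sensing, 2 were lower and 4 higher, the higher ones including Mavs (0.40), the adaptor downstream of RIG-I and MDA5, Trim25 (0.44) and Tlr3 (0.56). Of 9 NF-kappaB targets 2 were lower, a share near that of all genes, and 2 chemokines that were tested did not pass. None of the interferon genes on the list had enough counts to be tested.

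At 6000 ppm DEHP in frozen liver, where 4.72% of all genes were lower and 7.05% higher, few genes of the same lists passed the test. Irf5 was the 1 of 15 receptor and JAK-STAT genes that passed (-1.84 ± 0.39). Of 14 MHC class I genes, the proteasome activator Psme1 was higher (0.64 ± 0.10) and the immunoproteasome subunit Psmb10 lower (-0.55 ± 0.13). Of 9 NF-kappaB targets, the chemokine Cxcl1 was lower (-3.44 ± 1.07). None of 11 adaptors and none of 4 interferon-induced chemokines passed.

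Markers of cell types also differed from controls at 3.5 g/L DCA. Of 12 tested Kupffer cell (liver macrophage) markers, 10 were lower at 3.5 g/L, with C1qa at -0.96 and C1qc at -0.998, and the summed level of the list ran from 186.8 to 283.6 CPM at 3.5 g/L, against 341.5 to 476.5 CPM in controls, without overlap. At 1 and 2 g/L, 2 and 1 of the 12 were lower, and the median sums were 372.8, 331.9, 340.5 and 250.6 CPM at 0, 1, 2 and 3.5 g/L. Of 8 hepatocyte markers 7 were lower at 3.5 g/L, with a list median of -0.53, as were 7 of 9 stellate cell, 3 of 9 sinusoidal endothelium and 4 of 4 red blood cell markers, against 21.1% of all genes. None of 5 cholangiocyte markers (list median 0.033) and none of 2 neutrophil markers passed. No B cell marker had enough counts to be tested. The T and NK cell list summed to 1.37 to 9.58 CPM at 3.5 g/L (median 2.04), against 4.41 to 6.05 CPM in controls (median 4.69). The 1 gene of this list that was tested was lower at 2 and at 3.5 g/L (-1.98 and -1.51). The plasmacytoid dendritic cell list summed to 1.98 to 5.12 CPM at 3.5 g/L, against 0.351 to 0.934 CPM in controls. Of that list Ly6d was highest at 3.5 g/L and Siglech in controls, and the 1 gene tested was higher at 3.5 g/L (5.94). In bulk tissue fewer cells of a type and less RNA per cell cannot be told apart, and the part of these markers in the lower interferon response genes was not tested. With DEHP at 6000 ppm, none of 12 Kupffer cell markers passed in frozen liver, and the list summed to 271 to 425 CPM, against 208 to 339 CPM in controls. At 1500 ppm, where the members were lowest, it summed to 152 to 275 CPM and again none passed. Hepatocyte markers were lower in 3, 5 and 5 of 8 cases at 1500, 3000 and 6000 ppm in frozen liver, with list medians of -0.32, -0.52 and -0.55. Of the plasmacytoid dendritic cell list Ly6d was higher at 6000 ppm (4.24 ± 0.86), and Siglech did not pass (-0.67 ± 0.65). Of 4 tested T and NK cell markers, 1 was lower at 3000 ppm and 1 at 6000 ppm in frozen liver. In FFPE tissue 2 of 3 were lower at 6000 ppm. The part of these markers in the DEHP values was not tested.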

How the data were processed

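Male mouse liver was profiled by total RNA sequencing from 100 ng of RNA per library with ribosomal depletion and a stranded kit, from frozen tissue and from 4 FFPE sections of 10 µm, per the labels' protocols. The submitters' processing notes name CASAVA, STAR 2.4 and RSEM, and the build mm10. The deposited gene tables hold RSEM expected counts made by the authors, not normalised. They were rounded here to whole numbers. The authors' deposited FPKM values were used for levels between genes, and their deposited tables of raw counts as an alternative, which lacks frozen library 40A for DEHP and several members for DCA FFPE tissue. No columns of per-sample values were left unmapped (0), and no rows without a gene name were found (0).

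Each chemical and preparation was fitted separately over its 4 dose groups with edgeR 4.0.16 (R 4.3.3, limma 3.58.1): filterByExpr with a minimum count of 10, TMM scaling and the quasi-likelihood test, 2-sided. Calls are Benjamini-Hochberg adjusted p under 0.05 over all genes tested. The SE is the log2 fold change divided by the square root of F. CPM values are TMM-scaled, and 0.5 CPM was added before log2 for the heatmaps and the member mean. Preparations were compared with the animal as block, since both samples come from the same animal. The correlation of deviations from the group means between partners had a median of 0.465 over 13445 genes for DEHP and 0.0378 over 4761 for DCA. No 2 libraries of a group held identical values (168 pairs, smallest chi-square per degree of freedom 6.158). The steps were tested on simulated data.

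Members in every library are named by a rule: the smallest adjusted p and the highest CPM of each role group, every member called with DEHP, against its group's direction or in the test between chemicals. Values of other members, such as Isg15, Ifi27, Oas1g and Irf1, account for the rest of the list and were chosen after they were seen. The members, lists and tests were chosen with earlier results of these data known. The alternatives were DESeq2 1.42.0, other scaling factors, filters and thresholds, the 2 groups alone, the sequencing run as a term, the other count table and leaving out single libraries. Promoters are RefSeq sequences and gene spans are from GENCODE vM21.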

Additional observations from a re-analysis of the deposited data

Results flagged for a closer look

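In 4 of 162 groups of 4 to 6 libraries, 1 library stood apart from the others of its group by Dixon's criterion at 95%, of which chance gives about 1 in 20. Gbp7 was highest in library 29B of DEHP 6000 ppm, frozen, at 21.64 CPM, with the other 3 between 15.79 and 16.15 CPM. Mx2 was lowest in library 40A of DEHP 1500 ppm, frozen, at 3.119 CPM, with the other 3 between 5.031 and 5.315 CPM. Rsad2 was lowest in library 64C of DEHP 6000 ppm, frozen, at 7.608 CPM, with the others between 9.767 and 9.906 CPM. The member mean was also lowest in library 40A, at -0.7626, against -0.395 to -0.3295 in the other 3 libraries of 1500 ppm, frozen.

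The log2 effect of DCA 3.5 g/L minus that of DEHP 6000 ppm in frozen liver passed the test of the difference (edgeR adjusted p under 0.05) in 9 members. It was -1.08 for Lgals3bp, -1.16 for Bst2, -1.32 for Oas1a, -1.66 for Oas3, -2.24 for Oas1g, -1.54 for Oas2, -1.31 for Irf7, -1.23 for Ifi44 and -0.88 for Dhx58. The studies differ in agent, route, year of collection and sequencing run, which cannot be told apart in these differences. Each effect was taken against the controls of its own study. Within the DCA effect the dose cannot be told apart from the lane, which was L4 at 3.5 g/L and L5 in controls.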

How the results depend on the processing

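The count of members passing at DCA 3.5 g/L in frozen liver (34) stayed between 33 and 36 when single libraries were left out and between 29 and 36 under the other settings, and 29 of the 34 passed in every setting run. No named member changed direction. At DCA 1 g/L the 8 members became 5 to 8 without single libraries (5 without 3, 52, 53 or 54), 1 at an adjusted p under 0.01, 3 with the sequencing run as a term and 3 without libraries 53 and 54, an alternative chosen after seeing the data. At 2 g/L the 19 became 10 to 19 (10 without 76) and 10 at an adjusted p under 0.01. The 9 members differing between chemicals became 9 to 13. The slope of DCA in FFPE tissue passed in 3 members with no filter. These counts are of members only, without the share of all genes passing in each setting.

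DEHP counts depended on the setting, and the cause was not tested. The counts given for each setting are of members only, without the share of all genes. At 1500 ppm in frozen tissue the 6 members became 0 to 13 without single libraries, 0 at an adjusted p under 0.01, 12 with DESeq2, 2 with a filter of 1 CPM, with no filter or with only the 2 groups, 1 with the other count table or with the run as a term, and 3 with upper-quartile factors. In FFPE tissue the 7 became 1 to 15, 1 at 0.01, 13 with DESeq2, 4 with only the 2 groups and 0 with the run as a term. At 3000 ppm the 2 frozen members became 2 to 8, 5 with DESeq2, 4 with the other table or upper-quartile factors and 1 with the run, and the 4 FFPE members became 1 to 7, 1 at 0.01 and 1 with only the 2 groups. At 6000 ppm the 5 frozen members became 0 to 5, 0 at 0.01 or with the run, 3 with DESeq2 size factors, a filter of 1 CPM or the other table, 2 with no filter and 1 with only the 2 groups, and the 4 FFPE members became 1 to 6, 0 at 0.01 or with only the 2 groups and 7 with DESeq2. The slope in FFPE tissue passed in 2 members with DESeq2.

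Leaving out the replicate block of the pairing by animal moved FFPE against frozen tissue at dose 0 to 4 members for DEHP (12 with it, 8 to 10 without single animals) and 2 for DCA (0 with it, 0 to 2 without single animals), and the top-dose difference for DCA to 1 (0 with it). In FFPE tissue of DCA, 3 counts, the limit that a count of 0 allows, correspond to 6.279 to 101.8 CPM (outside Rn45s) at 3.5 g/L, so a member at 0 there may lie at any level up to that. This covers counting error only.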
